A study of Oryza sativa with 4 samples.

Results

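Root hair-like nuclei of the rice root tip were chosen by open chromatin at a pair of marker loci. Among barcodes with 10000 to 60000 Tn5 cut sites, each barcode was scored by its cut sites in peaks at a locus on chromosome 10 and a locus on chromosome 5, per 10000 of its own cut sites. In the first Normal library these peaks span chr10:16864951-16885542 and chr5:15714776-15717876, in the coordinates of the deposited peak lists. A score of 4 or more made a barcode root hair-like. Of 39257 barcodes in the depth range, 4578 met this rule, and 34679 are called the other barcodes here. The loci hold the genes LOC_Os10g31680, LOC_Os10g31700, LOC_Os10g31720 and LOC_Os05g27000, which are used as root hair markers. Their own accessibility defined the set, so it and the share of barcodes chosen by it are given only as a description. Neither locus enters any result on regions or genes.

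Root hairs are tubular outgrowths of single epidermal cells that take up water and nutrients. They elongate at their tip, which needs continued synthesis and loosening of the cell wall, and in rice the cellulose synthase-like D protein encoded by LOC_Os10g42750 is required for their growth. The assay, scATAC-seq, lets the transposase Tn5 cut into accessible DNA inside single nuclei, and thus cut sites near a gene report open regulatory DNA and not its transcription.

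The HS libraries came from root tips of Nipponbare seedlings that the study exposed to 45 °C for 3 h, and the Normal libraries from seedlings kept at 28 °C. All seedlings were 3 days old, and the primary root tips, 5 mm long, were fixed before nuclei were isolated. There were 2 libraries per condition. The study describes the HS libraries as separate rounds of the experiment and its samples as processed in different batches, but neither it nor the labels say which libraries shared a batch or whether the Normal libraries came from separate pools of plants. P-values therefore measure only the spread between these libraries, which may be technical in Normal, and a batch that followed condition cannot be told apart from heat.

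The HS libraries contributed 1041 and 1064 root hair-like barcodes, of 8762 and 9043 in the depth range. The Normal libraries contributed 1249 and 1224, of 10706 and 10746. Summed over root hair-like barcodes, a library held 30443835 to 32742112 cut sites, and over the other barcodes 231070508 to 261611136. The median depth of a root hair-like barcode was 27959 and 27241 cut sites in the HS libraries and 24121 and 23517 in the Normal libraries. The other barcodes had medians of 28761 and 28657 in HS and 25382 and 25386.5 in Normal. Any pair of libraries had 110 to 163 barcode sequences of this depth in common, and 1 to 4 among the root hair-like ones. At regions of equal called length, the root hair-like sums of replicate libraries differed by a chi-square per degree of freedom of 1.11 (HS) and 1.06 (Normal), where 1 is counting noise if cut sites come as pairs. Between an HS and a Normal library it was 8.56 to 8.67.

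The score was a range and had no gap at the limit. In each library 54.1% to 55.2% of barcodes had no cut site at either locus, and the median score of root hair-like barcodes was 6.17 to 6.30. Between 116 and 166 root hair-like barcodes per library lay at scores of 4 to 4.5, and 153 to 174 other barcodes lay at 3.5 to 4. Median scores on the 2 sides of the limit were 4.22 to 4.28 and 3.74 to 3.77. The share of root hair-like barcodes was 12.3% to 13.2% among those with 10000 to 20000 cut sites and 9.29% to 12.1% among those with 40000 to 60000.

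**Figure D1:**
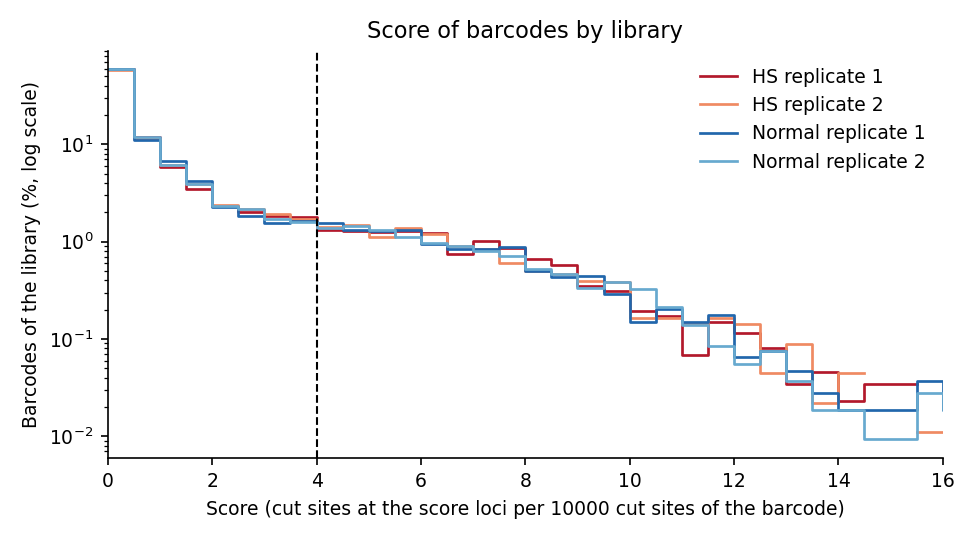
Score of barcodes by library. The x axis gives cut sites at the score loci per 10000 cut sites of the barcode, the y axis the percentage of the library's barcodes on a log scale, in bins 0.5 wide, and the axis ends below the highest score of 25.2. The dashed line marks the score of 4, and the 4 libraries fall together with no dip at that line.

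A root hair gene outside the rule was more accessible in these nuclei. LOC_Os10g42750 had 0.407 and 0.350 cut sites per 10000 in root hair-like barcodes of HS and 0.400 and 0.405 in those of Normal. In the other barcodes it had 0.150 and 0.125 in HS and 0.143 and 0.153 in Normal. The classes did not overlap, and the difference was 1.45 ± 0.04 on the log2 scale (SD, n = 4 libraries). The region of the gene with the most cut sites was 1.74 ± 0.05 higher (log2, SE, adjusted p = 8.14e-10 by edgeR's quasi-likelihood test with Benjamini-Hochberg adjustment). After each barcode was thinned to 10000 cut sites, 22.6% and 22.6% of root hair-like barcodes in HS and 24.7% and 26.8% in Normal had a cut site there. The shares of the other barcodes were 10.3% and 8.70% in HS and 10.1% and 10.2% in Normal. Before thinning the shares were 35.1% to 38.5% of root hair-like and 14.9% to 17.3% of other barcodes.

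This marker was not highest at the highest scores. In barcodes with scores of 0 to 1, LOC_Os10g42750 had 0.105 and 0.0873 cut sites per 10000 in HS and 0.112 and 0.120 in Normal. At scores of 3.5 to 4, just outside the set, it had 0.559 and 0.448 in HS and 0.436 and 0.455 in Normal. At 4 to 4.5, just inside, it had 0.470 and 0.505 in HS and 0.430 and 0.424 in Normal, so the limit separated barcodes with like levels of this gene. At scores of 8 or more it had 0.336 and 0.291 in HS and 0.396 and 0.414 in Normal.

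The markers of cortex, epidermis, endodermis and stele were lower in root hair-like barcodes of every library, though not all past the 2-fold limit. The cortex marker LOC_Os01g68589 had 0.438 and 0.398 cut sites per 10000 in root hair-like barcodes of HS and 0.454 and 0.443 in those of Normal, against 1.15, 1.11, 1.17 and 1.19 in the other barcodes of the same libraries. Its main region had a log2 difference of -1.32 ± 0.04 (SE, adjusted p = 8.72e-10, edgeR). The epidermis marker LOC_Os08g02300, a NAC gene, had a log2 difference of -1.12 ± 0.06 (SE, adjusted p = 5.61e-08, edgeR), although root hairs are epidermal cells. The positions of the cortex, epidermis and stele markers are approximate. The endodermis marker LOC_Os01g15610 and the stele marker LOC_Os01g15830 had log2 differences of -0.96 and -0.56, short of the 2-fold limit, though LOC_Os01g15610 passed it under 5 alternatives, at up to -1.19.

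Root cap markers were not absent. Of the 6 genes listed, LOC_Os08g30780 and LOC_Os03g60279 had a main region past both limits, at 2.01 ± 0.06 and 1.39 ± 0.08 (log2, SE). LOC_Os04g53640, LOC_Os06g33940, LOC_Os01g73700 and LOC_Os02g40070 had main-region differences of 0.60, 0.34, 0.02 and -0.27. Summed over all regions of a gene, the differences were 1.81, 0.77, 0.51, 0.24, 0.21 and -0.16 in the same order. By that measure LOC_Os03g60279 was under 2-fold. LOC_Os08g30780 shares its main region with LOC_Os08g30770, a gene of the root hair list, and the counts cannot be split between them. Summed over the other 5 root cap markers, root hair-like barcodes had 1.25 and 1.34 cut sites per 10000 in HS and 1.25 and 1.24 in Normal, and the other barcodes 1.09 and 1.09 in HS and 1.02 and 1.04 in Normal. The part of root cap nuclei in the results was not tested.

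**Figure D2:**
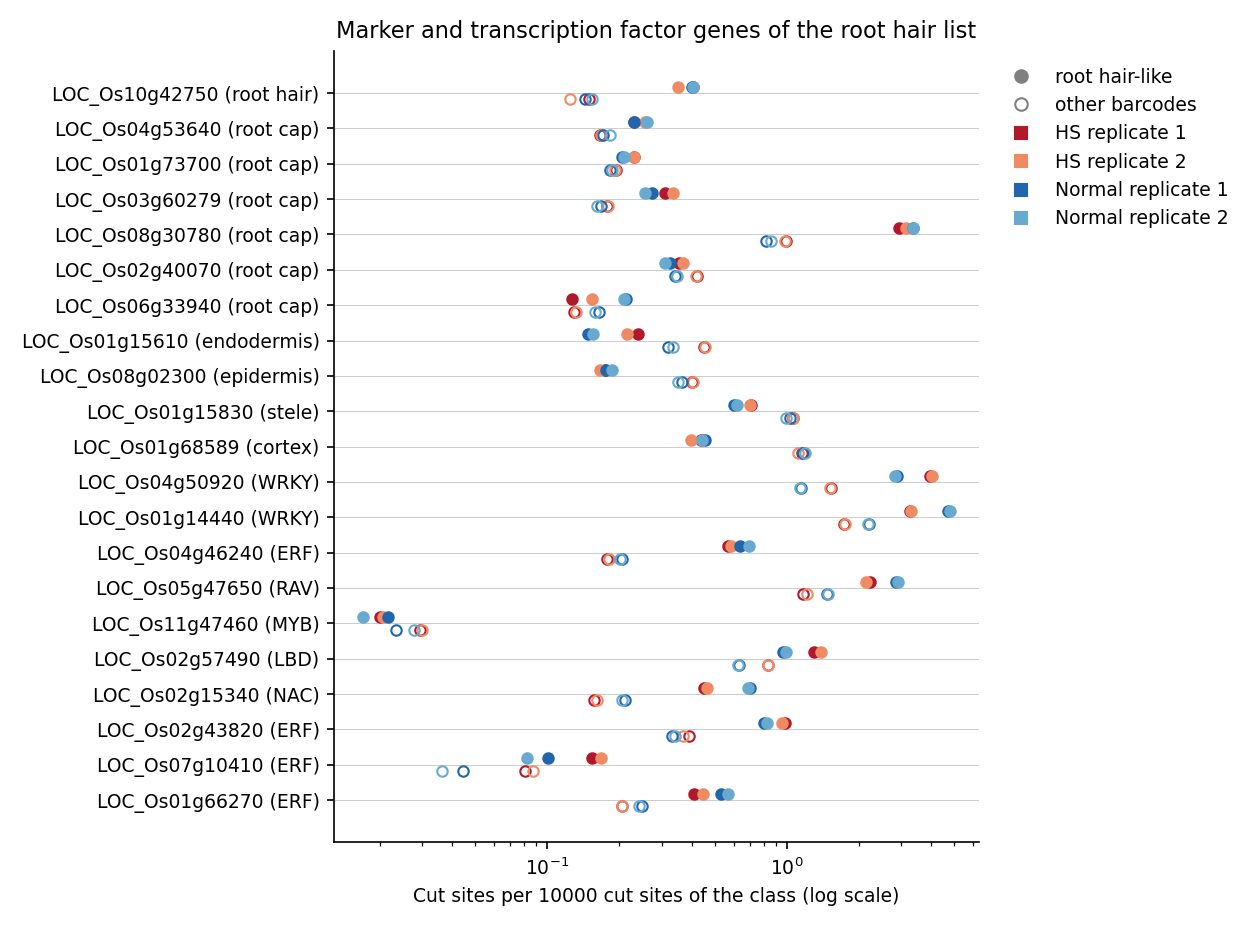
Marker genes and the genes of the root hair list that were counted as transcription factor genes. The x axis gives cut sites per 10000 cut sites of the class on a log scale, filled points are root hair-like sums, open points the other barcodes, and colors the 4 libraries. LOC_Os10g42750 lies at 0.350 to 0.407 in root hair-like barcodes and at 0.125 to 0.153 in the others, and the cortex marker LOC_Os01g68589 lies the other way round.

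Root hair-like nuclei were then compared with the other barcodes across the genome, over regions found in the peak lists of all 4 libraries and more than 200 kb from the score loci. A region counted as changed at an adjusted p of at most 0.01 and a difference of at least 2-fold. Of 55367 regions, 3369 (6.08%) were more accessible in root hair-like barcodes and 3108 (5.61%) less accessible (edgeR, library as block). At the adjusted p alone, 12390 were higher and 11668 lower, so a small adjusted p was common in this comparison. Scaled by library size alone, in place of TMM, 2885 were higher and 3764 lower. Over 4-fold, 461 were higher and 307 lower, and over 8-fold 9 were higher and 9 lower. The higher regions held 8.93% of the cut sites of root hair-like barcodes and 3.49% of those of the others. The lower regions held 1.66% and 4.61%. The number of open regions per barcode was similar, with medians at 10000 cut sites of 6235 and 6200 in HS and 6121 and 6080 in Normal for root hair-like barcodes. For the others they were 6256 and 6268 in HS and 6137 and 6149 in Normal.

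The largest rise lay at chr12:16649813-16651529, at the body or the upstream window of LOC_Os12g28070. It had 0.373 and 0.338 cut sites per 10000 in root hair-like barcodes of HS and 0.303 and 0.293 in those of Normal. The other barcodes had 0.0371 and 0.0407 in HS and 0.0370 and 0.0347 in Normal, a log2 difference of 3.22 ± 0.07 (SE, adjusted p = 1.98e-10, edgeR). A broader region, chr8:8880865-8885664, was higher by 3.12 ± 0.04 and had 1.51 and 1.58 cut sites per 10000 in HS and 1.38 and 1.41 in Normal, against 0.190, 0.191, 0.168 and 0.174 in the other barcodes. Regions of LOC_Os08g26544 (chr8:15476484-15477923) and LOC_Os12g17480 (chr12:10099311-10101273) were higher by 3.06 ± 0.09 and 3.04 ± 0.05. A pair of neighbours at chr12:15889130-15893691 and chr12:15894418-15896812 was higher by 3.13 ± 0.12 and 2.95 ± 0.14. The region at chr10:17127998-17129904 was higher by 3.01 ± 0.06 and lies just past the 200 kb left out around the score locus. The other 3 of the 10 largest rises, on chromosomes 5, 1 and 2, were 3.10 to 3.12.

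Among the falls, chr9:22015520-22017111 had 0.0213 and 0.0184 cut sites per 10000 in root hair-like barcodes of HS and 0.0192 and 0.0193 in those of Normal. The other barcodes had 0.205, 0.206, 0.184 and 0.182, and the log2 difference was -3.22 ± 0.08 (SE, adjusted p = 3.82e-10, edgeR). At chr7:17586044-17587249 it was -3.25 ± 0.12, with 21 to 32 cut sites per library in root hair-like barcodes. The falls at chr7:2256083-2256617, chr12:3708660-3709130 and chr4:18155584-18156713 were -3.28, -3.16 and -3.11, and they rested on 2 to 13, 2 to 8 and 10 to 30 cut sites per library in root hair-like barcodes. None of the genes placed here lay at these 5 regions, and only genes of the study's tables were placed.

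The genes that the study listed for its root hair cluster were mostly open in the same direction. They were chosen by the study on these libraries and are not independent evidence. Of 1307 genes outside the 200 kb windows, 1224 fell on 1082 tested regions, of which 740 were higher, 0 lower and 342 not past the limits, where 6.08% of all regions were higher and 5.61% lower. Their median difference was 1.27 on the log2 scale, beside -0.01 over all regions tested. The root cap list was taken from a table that was shortened. Genes that the study also listed for its root hair cluster were left out of it, which by itself can lower its counts. It had 481 tested regions, of which 49 were higher and 7 lower, beside the same 6.08% and 5.61% over all regions, with a median of 0.25. Summed, the root hair list took 583 and 590 cut sites per 10000 in root hair-like barcodes of HS and 561 and 561 in those of Normal, and 275, 278, 271 and 271 in the others. The root cap list took 197.6, 199.8, 209.9 and 210.8 in root hair-like barcodes, and 171.2, 170.4, 174.4 and 174.5 in the others.

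**Figure D3:**
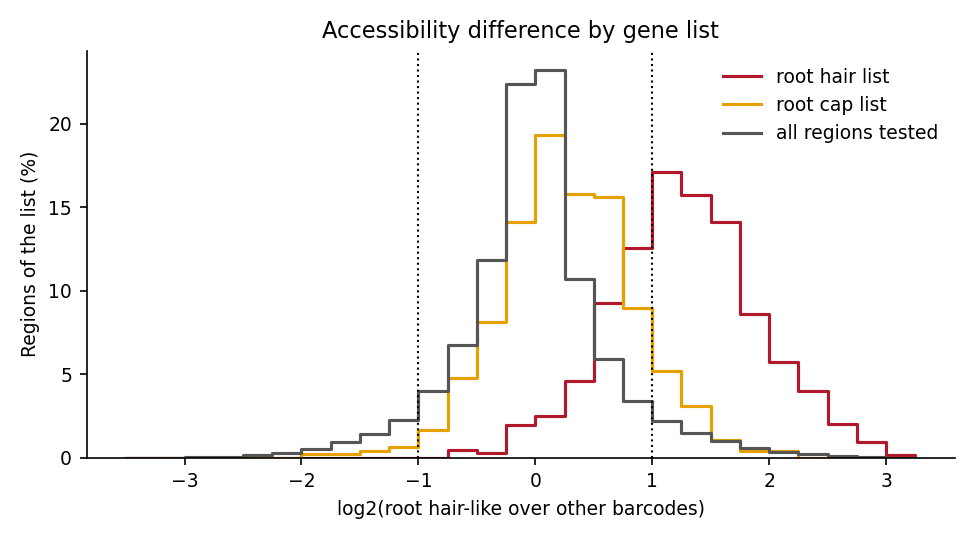
Accessibility difference by gene list. The x axis is the log2 difference of root hair-like over other barcodes, the y axis the percentage of the regions of a list in bins 0.25 wide, and dotted lines mark 2-fold. The root hair list centres on a median of 1.27 and the root cap list on 0.25, with all regions tested at -0.01. Genes of both clusters were left out of the root cap list, which by itself can widen the gap between the lists.

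Transcription factor genes were counted only where the study's table of motifs enriched after heat names the gene with a family. Others of the root hair list may have been missed. Those counted had 7 of 10 main regions higher and 0 lower, where 6.08% and 5.61% of all regions were, and a median of 1.28. They are part of the list that the study chose on these libraries. The WRKY gene LOC_Os04g50920 had 3.94 and 4.03 cut sites per 10000 in root hair-like barcodes of HS and 2.89 and 2.82 in those of Normal. The other barcodes had 1.52, 1.51, 1.15 and 1.14, a difference of 1.36 ± 0.05 (log2, SD, n = 4 libraries). The WRKY gene LOC_Os01g14440 had 3.26 and 3.30 in HS and 4.69 and 4.78 in Normal, against 1.73, 1.75, 2.20 and 2.17 in the others, which gave 1.02 ± 0.11. Both genes were higher in root hair-like barcodes of every library. WRKY, ERF, NAC, RAV, MYB and LBD are families of plant DNA-binding proteins.

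The ERF gene LOC_Os04g46240 had the largest difference of the 10, with 0.568 and 0.587 cut sites per 10000 in HS and 0.638 and 0.698 in Normal. The others had 0.178, 0.181, 0.206 and 0.201, a difference of 1.70 ± 0.07 (log2, SD, n = 4 libraries). The NAC gene LOC_Os02g15340 differed by 1.64 ± 0.13, and the ERF genes LOC_Os02g43820, LOC_Os01g66270 and LOC_Os07g10410 by 1.32 ± 0.04, 1.12 ± 0.10 and 1.05 ± 0.14. The main region of LOC_Os07g10410 was under 2-fold, at 0.90, with a score limit of 6 and, at 0.94, with the chromosome 10 locus alone. The RAV gene LOC_Os05g47650, the LBD gene LOC_Os02g57490 and the MYB gene LOC_Os11g47460 did not pass the limits, with main-region differences of 0.91, 0.70 and -0.38. The MYB gene was near the floor in both classes, at 0.0171 to 0.0217 in root hair-like and 0.0233 to 0.0300 in other barcodes.

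The first genes of the root hair list were all higher where they had a region. The study chose this list on these libraries, so their direction is not independent evidence. LOC_Os07g15330 had 0.942 and 0.981 cut sites per 10000 in root hair-like barcodes of HS and 1.06 and 1.02 in those of Normal, against 0.169, 0.159, 0.148 and 0.144 in the others. Its difference was 2.69 ± 0.17 (log2, SD, n = 4 libraries). LOC_Os07g41860, LOC_Os05g27980 and LOC_Os08g15340 differed by 2.39 ± 0.36, 2.16 ± 0.08 and 2.13 ± 0.20, and LOC_Os08g30770, LOC_Os08g15420 and LOC_Os06g05368 by 1.91 ± 0.20, 1.76 ± 0.02 and 1.70 ± 0.01. LOC_Os08g15340 was near the floor in the other barcodes, at 0.0034 to 0.0183. LOC_Os02g53100 differed by 0.95 ± 0.07, and its main region by 1.04 ± 0.04 (SE), or 0.95 scaled by library size alone. No shared region was placed at LOC_Os07g41850.

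Regions of one direction lay next to each other. The next region on the chromosome was also higher for 23.9% of the higher regions, where 6.08% of all regions were higher. For the lower regions the share was 23.0%, where 5.61% of all were lower. The longest run had 11 higher regions in a row at chr10:21233964-21263515, over LOC_Os10g39260, LOC_Os10g39270, LOC_Os10g39300, LOC_Os10g39310 and LOC_Os10g39320. Together they had 1.22 and 1.21 cut sites per 10000 in root hair-like barcodes of HS and 1.42 and 1.40 in those of Normal, against 0.320, 0.326, 0.377 and 0.368 in the others. The log2 difference was 1.92 ± 0.01 (SD, n = 4 libraries), given with no test because the run was chosen by its calls.

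Runs of 10 higher regions lay at chr1:12170198-12200716, over LOC_Os01g21640 and LOC_Os01g21650, and at chr7:24813961-24871372, over LOC_Os07g41830 to LOC_Os07g41910. Their differences were 2.05 ± 0.13 and 1.63 ± 0.16. A run of 9 at chr9:13610865-13650957, over LOC_Os09g23170 to LOC_Os09g23200, differed by 1.69 ± 0.06. One of 7 at chr4:27471856-27499122 holds the ERF gene LOC_Os04g46240 and differed by 1.75 ± 0.10. The longest runs of lower regions had 8 members, at chr11:2743853-2771355 (-1.75 ± 0.11) and chr2:27122784-27178019 (-1.63 ± 0.03). By chromosome, higher regions made up 7.83% on chromosome 11, 7.75% on chromosome 12 and 4.45% on chromosome 3, and lower regions 7.75% on chromosome 9.

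Root hair-like barcodes were not uniform. They were split by k-means into 3 groups on latent semantic indexing of regions of equal called length, with the score regions left out and library means removed. The groups come from the same counts that describe them, so no test was made. Group 1 held 474 to 617 barcodes per library, group 2 held 285 to 345 and group 3 held 277 to 302. Median depth was 17925 to 19964 cut sites in group 1, 35858 to 37638.5 in group 2 and 26162.5 to 36316 in group 3, so depth went along with the split. Median scores were 6.75 to 6.97, 5.91 to 6.29 and 5.42 to 5.77.

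For several markers the same group was highest in all 4 libraries. LOC_Os10g42750 had 0.509 to 0.598 cut sites per 10000 in group 3, above 0.270 to 0.350 in group 1 and 0.275 to 0.371 in group 2. The root cap marker LOC_Os04g53640 had 0.310 to 0.384 in group 2, above 0.155 to 0.207 in group 1 and 0.157 to 0.197 in group 3. LOC_Os03g60279, also a root cap marker, had 0.359 to 0.537 in group 2, 0.242 to 0.322 in group 1 and 0.111 to 0.129 in group 3. Group 2 was the highest of the groups for both of these root cap markers, and by its mean over libraries for the others listed too. In group 3, which had the most LOC_Os10g42750, LOC_Os03g60279 lay below the 0.161 to 0.179 of the other barcodes. The group 3 means of LOC_Os02g40070 (0.216) and LOC_Os01g73700 (0.166) were also below the 0.382 and 0.189 of the other barcodes. Those of LOC_Os08g30780 (2.46), LOC_Os04g53640 (0.175) and LOC_Os06g33940 (0.149) were above the 0.912, 0.171 and 0.146 of the other barcodes.

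By several measures group 3 lay nearest to the other barcodes. The stele marker LOC_Os01g15830 had 0.700 to 0.999 in group 3, 0.572 to 0.644 in group 1 and 0.515 to 0.555 in group 2, beside 0.987 to 1.06 in the other barcodes. Regions that were lower in root hair-like barcodes summed to 182 to 211 per 10000 in group 3, 141 to 152 in group 1 and 148 to 164 in group 2, beside 456 to 463 in the others. The root hair list took 520 to 583 in group 3, 581 to 615 in group 1 and 568 to 574 in group 2, so it was above the 271 to 278 of the others in each group. Of 20678 regions, 381 were at least 2-fold higher in group 3 than in the rest of the set in every library, 7 in group 2 and 0 in group 1. At least 2-fold lower in every library were 63 in group 3, 158 in group 2 and 13 in group 1. No doublet caller was run, and the part of doublets was not tested.

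**Figure D4:**
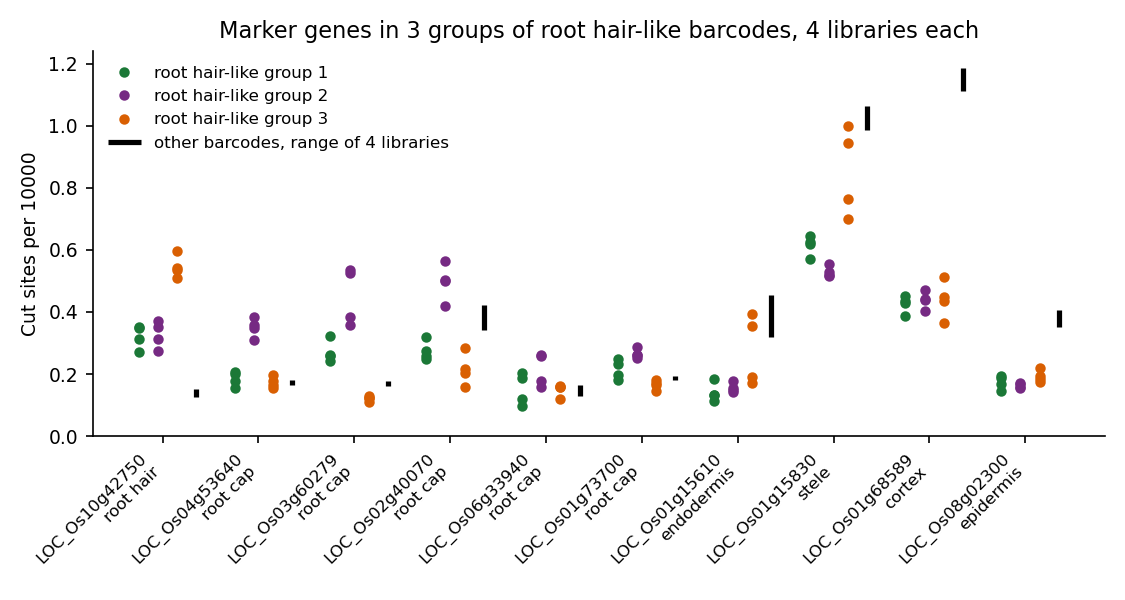
Marker genes in the 3 groups of root hair-like barcodes. The y axis gives cut sites per 10000, each point is 1 library, and black bars span the other barcodes of the 4 libraries. LOC_Os10g42750 is highest in group 3 (0.509 to 0.598) and the root cap marker LOC_Os04g53640 in group 2 (0.310 to 0.384).

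HS was next compared with Normal. Root hair-like barcodes made up 11.9% and 11.8% of the HS libraries and 11.7% and 11.4% of the Normal libraries. The means were 11.8 ± 0.08% in HS and 11.5 ± 0.20% in Normal (SD, n = 2 each), a difference of 0.295 percentage points. The rule's own loci set this share, so it is a description only. An exact permutation test over libraries gave p = 0.333 (two-sided), the smallest value that 2 against 2 allows, so it cannot decide whether the share differs. With barcodes thinned to 10000 cut sites the means were 13.6% and 12.9%. The called length of the chromosome 10 locus was 19600 and 19534 bp in HS and 18329 and 18328 bp in Normal, and a longer called length takes in more cut sites.

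Heat was tested within root hair-like barcodes on sums per library. Cut sites were counted in each library over that library's own peaks, and therefore the test used 22150 regions whose called length differed by no more than 10% over the libraries. Of these, 91 (0.411%) were higher and 94 (0.424%) lower in HS (edgeR, 2 against 2). In the other barcodes, thinned to the same totals, 11 (0.0497%) were higher and 13 (0.0587%) lower of 22153. The fitted spread between replicates was a biological coefficient of variation of 0.039 in root hair-like barcodes and 0.0099 in the thinned others. Thinning drew single cut sites and so broke the pairing of fragment ends, and replicates of the thinned others had a chi-square of 0.58 per degree of freedom. The 2 counts of calls are therefore not alike in spread, and their difference was not tested. Most regions past the limits in root hair-like barcodes leaned the same way in the others, 87 of 91 and 89 of 94. The share of all tested regions that leaned the same way in both classes was not counted. Median log2 differences of the 91 and the 94 regions were 1.12 and -1.13 in root hair-like barcodes and 0.51 and -0.54 in the others. These regions were selected for a change of at least 2-fold in root hair-like barcodes, which by itself makes the medians larger there. Of the 91 higher regions, 8 were also higher in the others (8.79% of these and 72.7% of the others' own), and of the 94 lower regions 5 were also lower (5.32% and 38.5%).

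The largest rise with heat was at chr7:25616275-25617260, with 0.0544 and 0.0368 cut sites per 10000 in HS and 0.0113 and 0.0126 in Normal (log2 difference 1.93 ± 0.24, SE, adjusted p = 1.02e-14, edgeR). These came from 112 to 166 cut sites per HS library and 37 to 40 per Normal library. At chr12:26020093-26021025 the values were 0.0655 and 0.0700 in HS and 0.0192 and 0.0234 in Normal, a rise of 1.67 ± 0.19. At chr5:15260209-15260887, in the promoter of LOC_Os05g26210, they were 0.0347 and 0.0374 in HS and 0.0134 and 0.0101 in Normal, a rise of 1.61 ± 0.26. In all 3 regions HS and Normal libraries did not overlap, but the rule by which regions were named required this.

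Stronger regions also rose. The region at chr9:12875892-12882444, distal to LOC_Os09g21500 and LOC_Os09g21510, had 0.454 and 0.396 in HS and 0.156 and 0.139 in Normal, a rise of 1.53 ± 0.08, and rose by 1.44 in the other barcodes. The promoter region of LOC_Os03g25840 (chr3:15136273-15139261) had 0.333 and 0.339 in HS and 0.126 and 0.124 in Normal, a rise of 1.43 ± 0.08, and rose by 1.25 in the others. An exonic region of LOC_Os05g10790 (chr5:5972644-5974416) rose by 1.38 ± 0.14 and by 1.17 in the others. A region distal to LOC_Os08g30520 (chr8:18156667-18158953) rose by 1.54 ± 0.10 and by 1.10 in the others. The other 3 of the 10 largest rises, on chromosomes 3, 11 and 4, were 1.37 to 1.52.

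Among the falls with heat, chr7:2838112-2839247 had 0.0144 and 0.0158 cut sites per 10000 in HS and 0.0660 and 0.0591 in Normal, a log2 difference of -2.05 ± 0.21 (SE, adjusted p = 1.01e-21, edgeR). An exonic region of LOC_Os01g36790 (chr1:20622077-20625974) had 0.0825 and 0.0815 in HS and 0.305 and 0.281 in Normal, a difference of -1.84 ± 0.10. The 7565 bp region at chr8:20466046-20473610 had 0.168 and 0.152 in HS and 0.458 and 0.467 in Normal, a difference of -1.53 ± 0.07. In the other barcodes the same region had 0.654 and 0.676 in HS and 0.603 and 0.636 in Normal. The HS values thus lay below the Normal values in root hair-like barcodes and above them in the others. A region distal to LOC_Os12g38490 (chr12:23636726-23639569) had 0.212 and 0.198 in HS and 0.566 and 0.559 in Normal, a difference of -1.45 ± 0.07, and fell by 1.07 in the others. The other 6 of the 10 largest falls were -1.87 to -1.41.

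**Figure D5:**
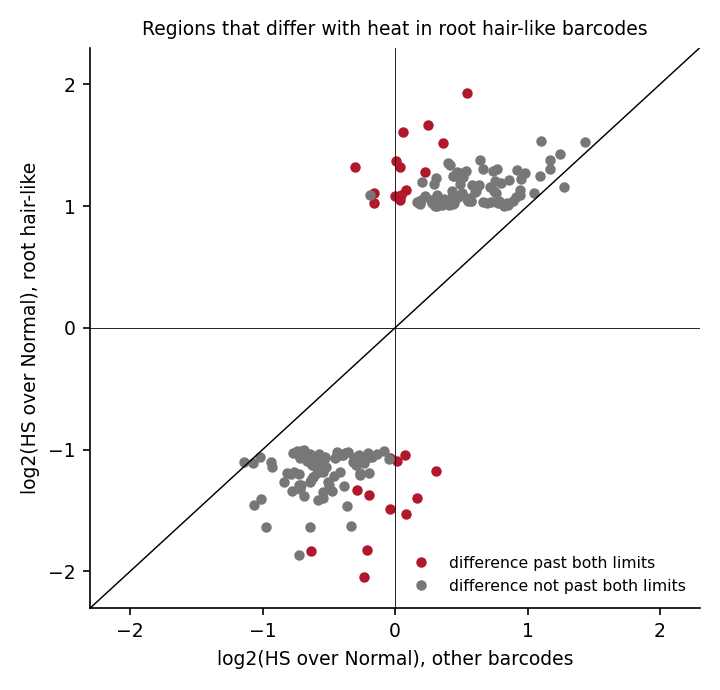
Regions past the limits for heat in root hair-like barcodes. The x axis is the log2 of HS over Normal in the other barcodes, the y axis the same in root hair-like barcodes, each point 1 of 185 regions, and the diagonal marks equal change. Medians are 1.12 and -1.13 in root hair-like barcodes and 0.51 and -0.54 in the others, and red points are regions where the difference itself passed both limits. The regions were selected on the y axis, so larger values there are fixed by the selection.

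For heat, the share of the root hair list past the limits was near that of all regions. Of 527 root hair list regions of equal called length, 2 were higher, 0 lower and 525 not past the limits, where 0.411% of all regions were higher and 0.424% lower, with a median of 0.06 beside -0.0034 over all regions tested. LOC_Os10g42750 had a main-region difference of 0.04 ± 0.07 (log2, SE). Of 7 transcription factor regions, 0 passed both limits, which at these shares of all regions says nothing of the 7, and their median was -0.21. The WRKY gene LOC_Os01g14440 had -0.53 ± 0.02, LOC_Os05g47650 -0.39 ± 0.03 and LOC_Os01g66270 -0.38 ± 0.06, while LOC_Os02g57490 had 0.41 ± 0.04. In the other barcodes these 4 genes had -0.34, -0.30, -0.27 and 0.50.

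Heat shock genes encode chaperones (small heat shock proteins, HSP70, HSP90, HSP101) and the transcription factors that induce them. The 19 genes of the list fell on 16 regions, 6 of them of equal called length, of which 1 was higher in root hair-like barcodes of HS, 0 lower and 5 not past the limits, where 0.411% and 0.424% of all regions were higher and lower. The small heat shock protein genes LOC_Os03g16020, LOC_Os03g16030 and LOC_Os03g16040 share the region that rose. It had 0.905 and 0.980 cut sites per 10000 in HS and 0.424 and 0.451 in Normal, a difference of 1.11 ± 0.05 (log2, SE, adjusted p = 1.1e-114, edgeR). In the other barcodes it had 1.08 and 1.05 in HS and 0.623 and 0.633 in Normal, a difference of 0.76. At the adjusted p alone, 3 of the 6 regions were higher and 1 lower in root hair-like barcodes, where 15.1% and 14.5% of all regions tested were. In the others 5 were higher and 0 lower, where 16.6% and 15.9% were.

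Another region of small heat shock protein genes, shared by LOC_Os01g04370 and LOC_Os01g04380, did not pass the limits in root hair-like barcodes (log2 difference -0.01 ± 0.03), with 2.28 and 2.25 cut sites per 10000 in HS and 2.25 and 2.32 in Normal. In the other barcodes it had 2.19 and 2.16 in HS and 1.60 and 1.62 in Normal. The heat effect differed between the classes by -0.45 ± 0.04 (log2, SE, adjusted p = 8e-17, edgeR), under the 2-fold limit. At its neighbour LOC_Os01g04360 the difference was -0.48 ± 0.06. The HSP90 gene LOC_Os08g39140 had 1.40 and 1.35 in HS and 0.814 and 0.834 in Normal in root hair-like barcodes, and 1.52 and 1.45 in HS and 1.09 and 1.10 in Normal in the others, a difference of the heat effect of 0.30 ± 0.05.

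The heat shock transcription factor gene LOC_Os10g28340 and the listed gene LOC_Os03g06630 also lay in regions of equal called length. In root hair-like barcodes they differed with heat by 0.19 ± 0.04 and -0.17 ± 0.03 (log2, SE), short of the 2-fold limit. In the others the differences were 0.31 and -0.03. The remaining regions of the list were called over different lengths, so the test of HS against Normal at equal length left them out. At the HSP90 gene LOC_Os04g01740, root hair-like barcodes had 0.694 and 0.696 in HS and 0.144 and 0.149 in Normal, over 5948 and 5991 bp in HS and 3957 and 3898 bp in Normal. At the small heat shock protein gene LOC_Os06g14240 they had 0.331 and 0.344 in HS and 0.0776 and 0.0743 in Normal. Of the 16 regions, 0 differed between the classes in their heat effect past both limits, where 0.225% of all regions were higher and 0.215% lower, so the 0 says nothing of this list. At the adjusted p alone 4 were higher and 5 lower, where 3.24% and 3.21% of all regions were.

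The difference of the heat effect between root hair-like and other barcodes was tested in 1 fit with library as a block, over 55440 regions. The other barcodes were thinned here too, so 1 spread was fitted to classes of unlike spread. At 0.031 it lay below the 0.039 of root hair-like barcodes alone, and p-values of this test may be too small. The effect was higher in root hair-like barcodes at 125 regions (0.225%) and lower at 119 (0.215%). At the 125 the median log2 of HS over Normal was 1.05 in root hair-like and 0.03 in other barcodes, and at the 119 it was -1.10 and 0.07. The effect had opposite signs in the classes at 49 and 53 of them. These regions were selected for a difference of at least 2-fold between the classes. That by itself sets the medians apart and makes opposite signs more frequent, and the share of opposite signs over all regions was not counted. Both classes of a library share its peaks, but where the called lengths differ the conditions cover different parts of a region. Over the 22153 regions of equal called length, 37 (0.167%) were higher and 22 (0.0993%) lower. DESeq2 called 8 and 8, and gave no adjusted p for 37620 regions, 229 of the 244 that edgeR called among them. With DESeq2 adjusted over all regions, an alternative added after seeing the data, the counts were 34 and 27.

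Regions of equal called length that changed with heat in root hair-like barcodes are compared first. At chr8:20466046-20473610 the heat effect was lower by a log2 of -1.62 in root hair-like than in other barcodes (adjusted p = 4.52e-32, edgeR). At chr10:12208219-12209986 it was -1.61, with 0.0203 and 0.0220 in HS and 0.0730 and 0.0771 in Normal in root hair-like barcodes, and 0.178 and 0.182 in HS and 0.226 and 0.211 in Normal in the others. At the LOC_Os01g36790 region it was -1.20 and at chr7:2838112-2839247 -1.81. In the other direction, the LOC_Os05g26210 promoter region had a difference of 1.55 and chr12:26020093-26021025 of 1.42.

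The largest differences over all regions lay where called lengths differed. At chr6:20078321-20080111, distal to LOC_Os06g34520, root hair-like barcodes had 0.0357 and 0.0394 in HS and 0.202 and 0.195 in Normal, and the others 0.0290 and 0.0378 in HS and 0.0485 and 0.0425 in Normal. The difference was -2.19 ± 0.20 (log2, SE, adjusted p = 4.41e-15, edgeR), over 760 and 1372 bp in HS and 1745 and 1648 bp in Normal. At chr12:18822393-18823826, distal to LOC_Os12g31160, they had 0.0861 and 0.0670 in HS and 0.00519 and 0.00569 in Normal, and the others 0.0433 and 0.0408 in HS and 0.0180 and 0.0198 in Normal, a difference of 2.70 ± 0.32. The promoter region of LOC_Os08g12984 (chr8:7262687-7263309) differed by 2.35 ± 0.36, with 0.0685 and 0.0752 in HS and 0.00764 and 0.00632 in Normal in root hair-like barcodes. The fitted spread of this test, 0.031, was below the 0.039 of root hair-like barcodes alone. Called lengths at the LOC_Os08g12984 region were 623 and 623 bp in HS and 293 and 321 bp in Normal.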

How the data were processed

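The authors ran the Cell Ranger ATAC pipeline (version 1.2.0 in the submitters' processing notes) on each library. The deposited matrices hold raw counts of Tn5 cut sites per peak and barcode, not normalized and not filtered for cells, over peaks called separately per library. No source read here names the genome build. Overlapping peaks of the 4 libraries were merged into 66332 regions, of which 55496 were in all 4 lists and 22154 of these differed by no more than 10% in called length. Counts were summed per region, library and class. The comparison of classes left out 136 regions within 200 kb of the score loci, and the tests of heat left out 3 score regions.

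Sums were tested with edgeR 4.0.16 (TMM, filterByExpr, quasi-likelihood) in R 4.3.3, with Benjamini-Hochberg adjustment over all regions of a fit, an adjusted p of at most 0.01 and at least 2-fold. DESeq2 1.42.0 was an alternative. For heat, the other barcodes were thinned binomially to the root hair-like totals. A gene's level sums the regions that overlap the gene or the 2000 bp before it, scaled to 10000 cut sites of the class, and its test is that of its region with the most cut sites. Gene positions and lists came from the study's supplementary tables. Positions of the epidermis, stele and cortex markers were read approximately from published tracks. No doublet caller was run, and no sequence is shown because no genome of the build was used here. Members and lists were chosen with earlier results of these data known, and the root hair and root cap lists were chosen by the study on these libraries.

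Genes were named by rule: cell type markers, transcription factor genes of the root hair list, its first 10 genes and the heat shock list. Transcription factor families came from the study's table of motifs enriched after heat, and genes outside that table were not counted. Regions were named as the 10 largest rises and 5 largest falls between classes, the 10 each way for heat and the 5 each way for the difference, among those past the limits, of 1 direction in every library and with at least 50 cut sites in each library of the higher class. Latent semantic indexing used 20 components, without those correlated above 0.75 with depth. On simulated counts, edgeR found 50% of 2-fold and 100% of 3-fold changes past both limits for the classes (55367 regions), 42% and 100% for heat (22150 regions), and 50% and 86% for the difference (55440 regions). A true 2-fold change lies at the fold limit, which largely sets its rate. The simulated spread was fixed, below the fitted 0.075 for the classes and above 0.039 for heat and 0.031 for the difference. Cut sites were simulated without pairing, so these rates do not give the power on the real counts. Other steps used Python 3.11.15, with scikit-learn 1.9.0, scipy 1.17.1, numpy 2.4.6, pandas 2.3.3 and matplotlib 3.10.9. Alternatives changed the score and depth limits, the loci, scaling, filter, threshold and called length, dropped each library in turn, or added the replicate number as a term.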

Additional observations from a re-analysis of the deposited data

Results flagged for a closer look

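The effect of heat differed between root hair-like and other barcodes, by edgeR's test of the difference itself, at 125 regions where it was higher and 119 where it was lower in root hair-like barcodes. Among regions of equal called length the counts were 37 and 22. The spread fitted over all regions, 0.031, lay below the 0.039 of root hair-like barcodes alone, so p-values of this test may be too small. DESeq2 called 8 and 8. Of the 20 regions named for heat in root hair-like barcodes, 10 also passed both limits for the difference. Their difference of the log2 heat effects was 1.38 at chr7:25616275-25617260, 1.42 at chr12:26020093-26021025, 1.55 at the LOC_Os05g26210 promoter, 1.15 at chr3:10182567-10184998 and 1.36 at chr4:22699657-22700197. It was -1.81 at chr7:2838112-2839247, -1.20 at the exonic region of LOC_Os01g36790, -1.61 at chr10:12208219-12209986, -1.62 at chr8:20466046-20473610 and -1.45 at chr1:25409022-25410070. The other 10 did not pass both limits, with differences of 0.09 to 0.74 among the rises and -1.14 to -0.39 among the falls. All 20 have the same called length in the libraries, within 10%.

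The largest differences over all regions lay where called lengths differed between libraries by 1.36 to 12.4 times, and what part the lengths have in them was not tested. The heat effect was higher in root hair-like barcodes by 3.10 at chr11:27094498-27095009, 2.70 at chr12:18822393-18823826, 2.35 at the LOC_Os08g12984 promoter, 2.20 at chr12:14725850-14727177 and 2.11 at chr9:14379982-14381218 (LOC_Os09g24370). It was lower by -2.19 at chr6:20078321-20080111 (LOC_Os06g34520), -2.00 at chr6:25428904-25429931, -1.98 at chr11:21846361-21846712, -1.96 at chr1:5381912-5382356 and -1.90 at chr9:7654393-7655103.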

How the results depend on the processing

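Counts of regions that differed between root hair-like and other barcodes ranged from 3354 to 3403 higher and 3043 to 3173 lower with each library left out in turn. For heat in root hair-like barcodes these ranges were 98 to 116 higher and 102 to 128 lower, for heat in the other barcodes 13 to 17 higher and 10 to 16 lower (17 without Normal replicate 1), and for the difference 104 to 126 higher and 98 to 115 lower. The difference in the share of root hair-like barcodes, a description since the rule's loci set it, was 0.157 to 0.433 percentage points. With a score limit of 6, heat changed 143 regions upward and 169 downward in root hair-like barcodes, and 18 upward in the others. With regions of any called length it changed 1532 and 1947 in root hair-like barcodes and 1200 and 1777 in the others, which adds regions whose called lengths differ between conditions. In the others 17 were higher at depths of 20000 to 60000 and 17 at depths of 10000 to 40000. For the difference of the heat effect, the counts were 215 higher and 216 lower at an adjusted p of 0.05, 8 and 8 with DESeq2, 34 and 27 with DESeq2 adjusted over all regions, 37 and 22 at equal called length, and 81 higher with the chromosome 10 locus alone. The cause was not tested for the score, depth and locus settings. No refitted result reversed its direction.

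The correlation of same-numbered deviations was 0.0058 in root hair-like barcodes. Replicates differed by little more than counting noise (chi-square per degree of freedom of 1.11 and 1.06), so this value cannot tell whether replicate numbers paired the libraries. With the replicate number as a block, heat changed 89 regions upward and 95 downward in root hair-like barcodes and 12 and 13 in the others.

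Among named regions, 567 refits kept their side of the limits and 28 fell short. Of these, 6 came with a score limit of 6 and 1 with a limit of 3. Depths of 10000 to 40000 gave 5, depths of 20000 to 60000 gave 2, and the chromosome 10 locus alone gave 3. The difference was under 2-fold at chr1:5381912-5382356 (-0.95, score limit 6) and chr11:21846361-21846712 (-0.87, depths of 10000 to 40000). The rest came with a library left out. The difference at chr11:27094498-27095009 was lost without HS replicate 1 (2.51) or Normal replicate 2 (2.58), that at chr9:14379982-14381218 without Normal replicate 1 (2.07) or 2 (2.14), that at chr11:21846361-21846712 without HS replicate 1 (-1.84), HS replicate 2 (-2.15) or Normal replicate 1 (-1.58), that at chr1:5381912-5382356 without HS replicate 1 (-1.62) or Normal replicate 2 (-1.60), and that at chr9:7654393-7655103 without HS replicate 2 (-1.49) or Normal replicate 1 (-1.70).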
